A study of Mus musculus with 22 samples.

Results

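The 9 genes described here are core components of TGF-beta signalling: the ligand genes Tgfb1, Tgfb2 and Tgfb3, Inhba (which encodes the subunit of activin A), the receptor genes Tgfbr1 and Tgfbr2, the signal transducer Smad3, and the feedback genes Smad7 and Skil. They were taken by gene symbol, 1 row each, from a table of 49671 genes in 22 mouse RNA-seq libraries, of which 31139 genes were above 0 in at least 1 library. All 9 reached 10 units in 2 or more libraries, the minimum for a test. The libraries came from cell lines grown out of a primary tumour that carried Lgr5CreER, p53fl/fl and Rosa26-YFP+/+, alleles that the control line and the 4 knockout lines share. Each knockout line is labelled as a knockout of 1 transcription factor, Pitx1, Klf5, Nfatc1 or Creb3l1, by CRISPR/Cas9 editing. Single live cells positive for mCherry and YFP (mCherry+ YFP+) were sorted by the surface protein EPCAM. Day 8 gave an EPCAM+ and an EPCAM- fraction of each of the 5 lines, and day 0 gave EPCAM+ cells of the control line only, with 2 libraries in each of the 11 groups. What starts at day 0 is not stated, nor is whether a knockout line is 1 clone or whether the 2 libraries of a group are separate cultures, so the p-values measure only the spread between these samples.

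TGF-beta ligands and activins are secreted dimers. A ligand brings a type II receptor (TGFBR2 for TGF-beta) together with a type I receptor (TGFBR1, which activins do not need), and the type I kinase phosphorylates SMAD2 and SMAD3, which enter the nucleus with SMAD4 and regulate genes. Among the genes they switch on are inhibitors of the same pathway: SMAD7 blocks and degrades the type I receptor, and SKIL (SnoN) represses SMAD complexes on DNA. In carcinoma cells TGF-beta is a textbook inducer of epithelial-mesenchymal transition, in which cells lose EPCAM and E-cadherin and gain vimentin.

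The deposited values had been scaled to a common total (20007331 to 20014236 per library). From the steps between values, 1 read was estimated at 2.02 to 3.3 of these units, and a library at 6054929 to 9882696 reads (median 7804837). The RNA followed the sort: Epcam lay between 3702 and 7320 units in day 8 EPCAM+ libraries and between 90 and 735 in EPCAM- libraries, and Vim between 5163 and 16658 against 30486 and 67534. The 6 epithelial markers summed to 32554 to 56789 units in EPCAM+ and 15720 to 25988 in EPCAM- libraries, so EPCAM- cells still held keratin mRNA such as Krt8. Pitx1 was at 1205 to 1627 units in its knockout and 4358 to 6438 in day 8 control libraries, and Nfatc1 at 182 to 249 against 488 to 981. Klf5 mRNA overlapped between its knockout (1961 to 2247) and control (1733 to 2941). Creb3l1 was at 0 to 6 in its knockout and at 137 and 26 in control EPCAM- libraries, but it was also at 0 in both day 8 control EPCAM+ libraries and at 0 to 8 in the other 3 knockout lines, so mRNA checks the Klf5 and Creb3l1 labels only weakly.

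Per kilobase of annotated exon, which is the scale on which different genes can be compared, Skil had the highest median level over the 22 libraries at 619 units per kb. Smad7 followed at 469, Smad3 at 415, Tgfb1 at 278, Tgfbr1 at 247 and Tgfbr2 at 213. The ranges of these neighbours overlapped, for example 133 to 355 units per kb for Tgfbr2 and 180 to 429 for Tgfbr1. Inhba and Tgfb3 lay lower, with medians of 43.6 and 43.3 units per kb, and Tgfb2 lowest at 4.14. Tgfb1 was thus the main TGF-beta ligand mRNA of these cells in every library, since its lowest level (168) exceeded the highest of Tgfb3 (79.5) and of Tgfb2 (11.2). Tgfb2 rested on only 1 to 25 reads per library.

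**Figure D1:**
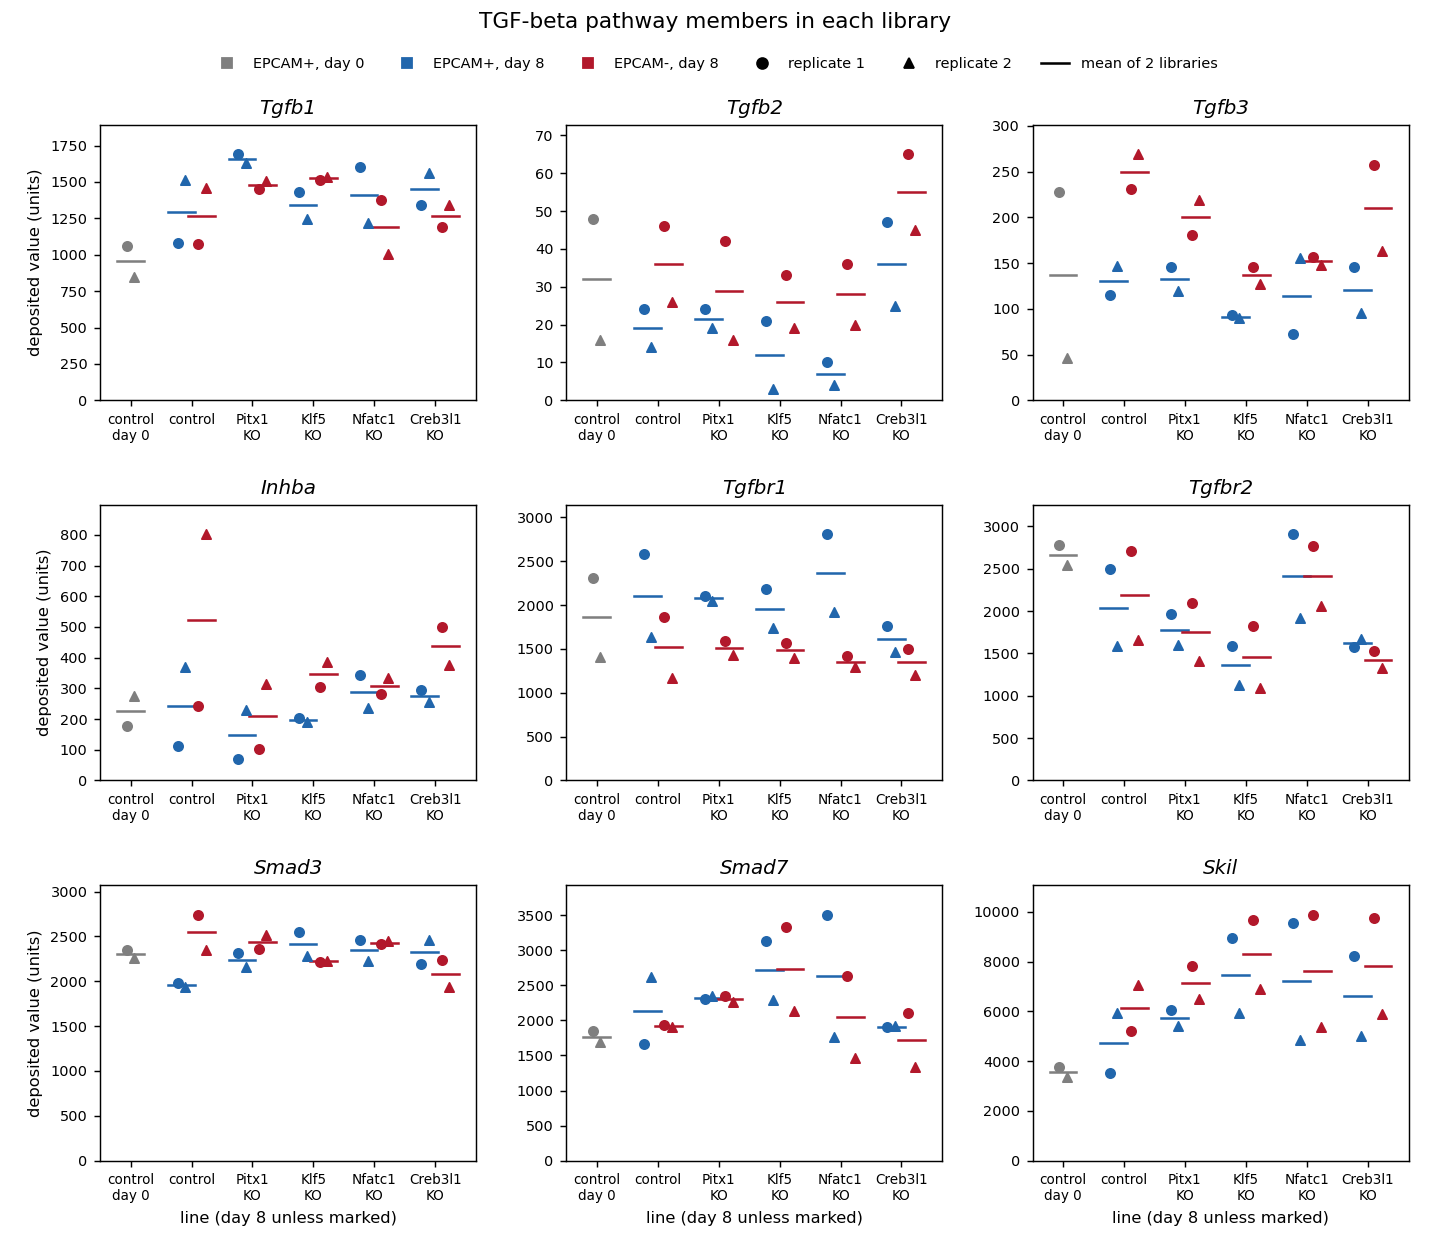
Deposited value (units, linear axis from 0) of each of the 9 genes in each library, by line, with EPCAM+ libraries in blue, EPCAM- libraries in red, day 0 in grey, circles for replicate 1, triangles for replicate 2 and a bar for the mean of 2 libraries. Tgfbr1 lies lower in the EPCAM- library of every pair, while in Skil the replicate 1 libraries of the knockout lines (6054 to 9882) stand above those of the control line (3535 and 5227).

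The first comparison asked how EPCAM- cells differ from EPCAM+ cells at day 8 over all 5 lines, 10 libraries against 10. The type I receptor gene Tgfbr1 was lower in EPCAM- cells, while the ligand genes Tgfb2, Tgfb3 and Inhba and the feedback gene Skil were higher. Tgfb1, Tgfbr2, Smad3 and Smad7 did not pass the test in either direction. Fitted without pairing, a limma linear model on log2(value + 1) called 1 of the 9 genes at a Benjamini-Hochberg adjusted p below 0.05, Tgfbr1, beside 6.22% of all 19569 genes tested (2.74% rose and 3.49% fell). The labels number the 2 libraries of a group and do not say whether libraries of the same number share a culture or a sort. With that number as a block within each line, so that the fractions sorted from the same line under the same number were paired, the model called 5 of the 9 (4 higher, 1 lower) beside 22.9% of 19396 genes tested (13.7% rose and 9.2% fell). With the number as 1 block common to all lines it called Tgfbr1 and Tgfb2, beside 10.1% of genes. In bulk RNA, fewer cells that express a gene and less RNA of that gene per cell cannot be told apart.

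Among the ligand genes, Tgfb3 lay between 72 and 156 units (median 117.5) in EPCAM+ libraries and between 127 and 269 (median 172) in EPCAM- libraries. The EPCAM- library was higher in 9 of 10 pairs, and the exception was Nfatc1 knockout replicate 2 (148 against 156). The log2 difference was 0.68 with a standard error of 0.12 in the paired fit (adjusted p = 0.00022) and did not pass without pairing (adjusted p = 0.104). Tgfb3 lies on the minus strand at chr12:86056745-86079041 (GRCm38) and overlaps 3 genes on the other strand: Ttll5 (553 to 1108 units, 0 shared exon bases), Gm37804 (4 to 45 units, 163 shared exon bases) and Gm48008 (257 shared exon bases). The strand used in counting is not given in the sources used here, so reads of the 2 strands there cannot be told apart.

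Inhba ranged from 69 to 371 units (median 231.5) in EPCAM+ and from 103 to 801 (median 324.5) in EPCAM- libraries. The fractions overlapped widely, but the EPCAM- library was higher in 9 of 10 pairs, all but Nfatc1 knockout replicate 1 (282 against 343). The median ratio within a pair was 1.5 (0.822 to 2.16), and the paired log2 difference was 0.64 with a standard error of 0.09 (adjusted p = 1.87e-05, against 0.254 without pairing). In the control line the 2 pairs had nearly the same ratio, 2.15 (243 against 113 units) and 2.16 (801 against 371 units), although replicate 2 was the higher in both fractions. Inhba covers chr13:16011851-16031621 on the plus strand.

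Tgfb2 was close to the limit of detection, at 3 to 47 units (median 20.0) in EPCAM+ and 16 to 65 (median 34.5) in EPCAM- libraries. It was higher in EPCAM- cells in 9 of 10 pairs, with a log2 difference of 1.04 (standard error 0.25 in the paired fit, adjusted p = 0.00391, against 0.0918 without pairing). The exception was Pitx1 knockout replicate 2 (16 against 19). At 1 to 25 reads a library the size of this difference is imprecise. Tgfb2 lies at chr1:186622792-186705989 on the minus strand and shares 124 exon bases with the antisense gene Gm29491, which held 0 to 6 units. Tgfb1, by contrast, was at 1078 to 1690 units in EPCAM+ and 1007 to 1537 in EPCAM- libraries, with a log2 difference of -0.09 (standard error 0.05, paired adjusted p = 0.216), the smallest difference among the 4 ligand genes. Tgfb1 covers chr7:25687002-25705077 on the plus strand.

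Fibroblasts, platelets and leukocytes also carry TGF-beta ligand mRNA, so their markers are given here. The 8 fibroblast markers summed to 73 to 310 units in EPCAM+ and 175 to 1477 in EPCAM- libraries, with the highest single values for Pdgfra (282) and Col3a1 (1098), respectively. Of the others, Lum was at 0 to 6 and Thy1 at 0 to 3 units over the day 8 libraries. Dcn was at 0 to 61, Col6a3 at 0 to 40, Pdgfrb at 0 to 265 and Postn at 0 to 337. Col3a1 reached 1098 units in Pitx1 knockout EPCAM- replicate 1 but was at 3 to 65 in the EPCAM- libraries of replicate 2, where Pdgfra was higher (72 to 398). The 3 platelet markers summed to 24 to 90 against 31 to 96 units, the 8 leukocyte markers to 167 to 365 against 138 to 288, and the 5 endothelial markers to 69 to 203 against 65 to 431. Of the leukocyte markers, Csf1r was at 91 to 277 and Cd68 at 38 to 97 units in every day 8 library, while Cd3e was at 0 in all of these and Adgre1 in every EPCAM- library. The part of these markers in the ligand differences was not tested.

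Tgfbr1, the kinase receptor that all TGF-beta ligands need, had values of 1466 to 2805 units (median 1986) in EPCAM+ and of 1174 to 1861 (median 1423.5) in EPCAM- libraries. The EPCAM- library was lower in 10 of 10 pairs, at 0.506 to 0.851 of its partner (median 0.720). The log2 difference was -0.47, with adjusted p = 0.0272 without pairing (standard error 0.12) and 6.53e-07 with it (standard error 0.05). Leaving out each of the 22 libraries in turn, the log2 difference without pairing stayed between -0.54 and -0.41, and the call was kept 12 times, with adjusted p from 0.0117 to 0.0673. The call was lost without the EPCAM+ library of replicate 1 or the EPCAM- library of replicate 2, in each of the 5 lines. In the paired fit, leaving out each of the 10 pairs kept all 5 calls every time. Tgfbr2, the receptor that binds the ligand first, did not differ by a detectable amount, at 1125 to 2903 units in EPCAM+ and 1086 to 2766 in EPCAM- libraries, with 5 of 10 pairs higher in EPCAM- and a log2 difference of -0.01 (standard error 0.05, paired adjusted p = 0.912). Tgfbr1 covers chr4:47353222-47414931 on the plus strand and Tgfbr2 chr9:116084293-116175360 on the minus strand.

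The promoter windows of Tgfbr1 and Tgfb2, the members with the largest fall and the largest rise, are printed here as a description. The windows run from 250 bases before to 50 after an annotated start (RefSeq, GRCm38.p6) and are printed 5′ to 3′ on the gene's strand. Capitals mark CAGACA (the CAGA box) and GGCGCC, letters that SMAD proteins are known to bind.
Tgfb2, chr1:186705940-186706239, minus strand: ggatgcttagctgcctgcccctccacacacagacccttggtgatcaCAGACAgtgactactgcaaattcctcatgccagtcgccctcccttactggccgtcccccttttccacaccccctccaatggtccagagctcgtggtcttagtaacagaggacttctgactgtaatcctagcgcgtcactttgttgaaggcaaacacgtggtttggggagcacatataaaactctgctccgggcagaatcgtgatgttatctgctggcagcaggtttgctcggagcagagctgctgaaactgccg
Tgfbr1 upstream start, chr4:47352972-47353271, plus strand: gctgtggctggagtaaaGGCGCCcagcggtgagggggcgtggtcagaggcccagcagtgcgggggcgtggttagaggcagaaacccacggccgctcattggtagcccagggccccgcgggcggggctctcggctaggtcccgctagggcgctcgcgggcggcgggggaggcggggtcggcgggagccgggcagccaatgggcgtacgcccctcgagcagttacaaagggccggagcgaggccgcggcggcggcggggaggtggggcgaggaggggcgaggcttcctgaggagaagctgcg
Tgfbr1 downstream start, chr4:47385966-47386265, plus strand: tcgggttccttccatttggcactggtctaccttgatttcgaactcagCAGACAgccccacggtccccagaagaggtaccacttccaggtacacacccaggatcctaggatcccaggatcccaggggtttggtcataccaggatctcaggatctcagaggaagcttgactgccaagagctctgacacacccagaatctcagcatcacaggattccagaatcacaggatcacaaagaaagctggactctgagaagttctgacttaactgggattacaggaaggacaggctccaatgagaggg
The CAGA box starts at position -204 in Tgfb2 and -203 in the downstream Tgfbr1 window, and GGCGCC at -233 in the upstream Tgfbr1 window, counted from the annotated start. Of 32851 mouse promoters of the same length, 21% hold CAGACA and 11.9% GGCGCC on either strand. RefSeq windows were matched for 6 of the 9 genes (7 windows: these 3 and 1 each for Tgfb1, Tgfbr2, Smad3 and Inhba). CAGACA was in 2 of the 7 and GGCGCC in 1. The GC box GGGCGG, which can overlap GGCGCC and is left in lower case, was in 3 of the 7 (35.7% of all promoters), 6 times in Tgfb1. The palindromic Smad box GTCTAGAC, the AP-1 site TGAGTCA, the cyclic AMP element TGACGTCA, the E-box CAGGTG and the TEAD motif GGAATG were in 0 of the 7 windows (0.213, 5.2, 1.79, 20.2 and 14.7% of all promoters). A match to letters is a description of the window and not a site shown to be used. The part of these letters in the fraction differences was not tested.

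Smad3 (chr9:63646767-63757994, minus strand), which carries the signal into the nucleus, varied little, at 1936 to 2742 units over all 22 libraries. Its fractions did not separate: 6 of 10 pairs were higher in EPCAM- cells, and the log2 difference was 0.06 (standard error 0.05, paired adjusted p = 0.484). The control pairs had the highest ratios of EPCAM- to EPCAM+, 1.39 and 1.21, against 0.788 to 1.17 in the knockout pairs. No test of that difference between lines passed. Smad7, the receptor-blocking inhibitor, was at 1658 to 3508 units (median 2300) in EPCAM+ and 1329 to 3331 (median 2120) in EPCAM- libraries. It was higher in 4 of 10 pairs, with a log2 difference of -0.13 (standard error 0.07, paired adjusted p = 0.183). Leaving out the control or the Creb3l1 knockout pair of replicate 1 took Smad7 past the threshold as lower (smallest adjusted p = 0.0323).

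Skil, the transcriptional inhibitor, was at 3535 to 9552 units (median 5941) in EPCAM+ and 5227 to 9882 (median 6985) in EPCAM- libraries. The ranges overlapped widely, yet the EPCAM- library was higher in 10 of 10 pairs, by a median of 1.18 times (1.03 to 1.48). The log2 difference was 0.24 with a standard error of 0.04 in the paired fit (adjusted p = 0.000277), against an adjusted p of 0.490 without pairing. Skil covers chr3:31095058-31122577 on the plus strand. Of the 2 feedback genes Skil thus passed the test and Smad7 did not, and the difference between them was not tested.

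**Figure D2:**
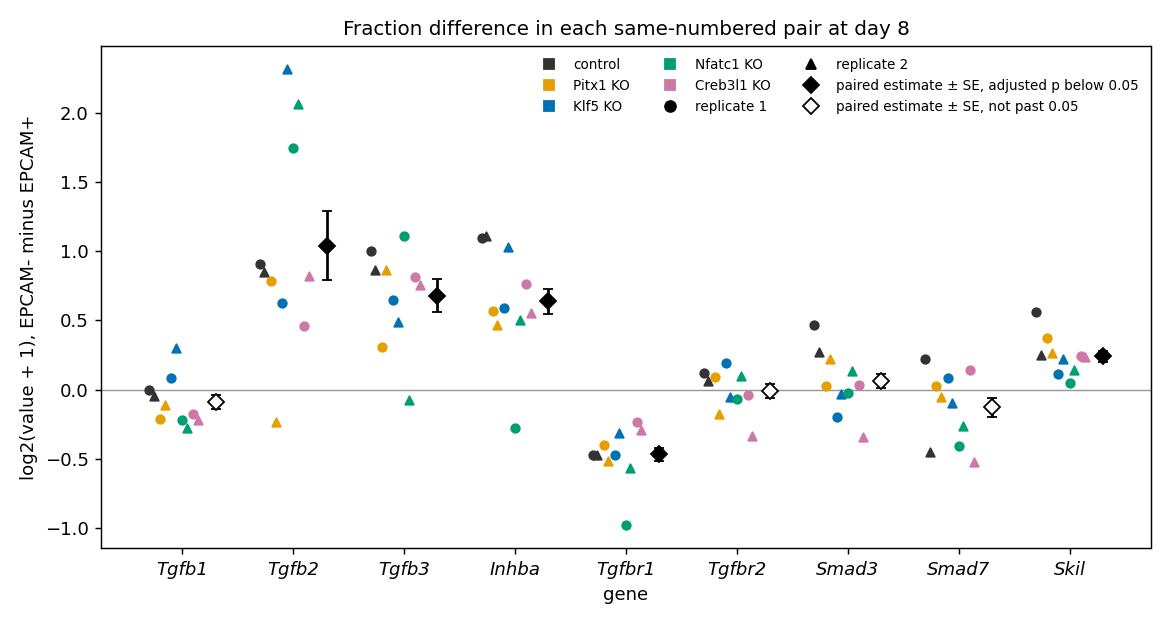
Difference in log2(value + 1), EPCAM- minus EPCAM+, in each of the 10 same-numbered pairs of day 8 (coloured by line, circles for replicate 1, triangles for replicate 2), with the estimate of the paired fit and its standard error as diamonds, filled at an adjusted p below 0.05. Every pair lies below 0 for Tgfbr1 and above 0 for Skil, and 9 of 10 lie above 0 for Tgfb2, Tgfb3 and Inhba.

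The mean fraction differences of the 5 genes called in the paired fit had the same sign within each replicate number. The calls came from these same pairs, so the shared sign was largely fixed by the choice of genes and is not a separate check. The means and SDs by replicate number are given as a description of the size and spread over lines. Tgfbr1 was lower in EPCAM- cells by a mean log2 of -0.51 over the 5 replicate 1 pairs (SD 0.28) and -0.43 over the 5 replicate 2 pairs (SD 0.13). Skil was higher by 0.27 (SD 0.21) and 0.22 (SD 0.05), in 5 of 5 lines each. Tgfb3 was higher by 0.78 (SD 0.32, 5 of 5 lines) and 0.58 (SD 0.40, 4 of 5). Inhba was higher by 0.55 (SD 0.51, 4 of 5 lines) and 0.73 (SD 0.31, 5 of 5), and Tgfb2 by 0.91 (SD 0.50, 5 of 5) and 1.17 (SD 1.04, 4 of 5), so the SD over lines was close to the mean for Inhba in replicate 1 and for Tgfb2 in replicate 2. For Smad7 the 2 means were 0.01 in replicate 1 and -0.28 in replicate 2.

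Line by line, with 2 libraries against 2, none of the 45 tests passed without pairing (3 at an unadjusted p below 0.05; smallest adjusted p = 0.346), beside 0.644% of all genes in the control line, 0.317% in the Pitx1, 0.286% in the Klf5, 0.429% in the Nfatc1 and 0.291% in the Creb3l1 knockout. With the common replicate block 1 passed, Tgfbr1 in the Nfatc1 knockout (adjusted p = 0.0326, beside 0.956% of genes). With pairing within lines 8 passed, beside 7.05, 4.86, 2.21, 6.12 and 3.23% of genes in the same order. Of these the control line had 4: Inhba (log2 1.10, adjusted p = 0.00142), Skil (0.41, 0.0123), Tgfbr1 (-0.47, 0.0141) and Tgfb3 (0.93, 0.0353). Tgfbr1 also fell in the Pitx1 knockout (-0.46, 0.0231) and the Nfatc1 knockout (-0.78, 0.000251), where its values went from 2805 and 1923 units to 1418 and 1294. Tgfb2 rose in the Nfatc1 knockout (from 10 and 4 to 36 and 20 units, adjusted p = 0.0434) and Inhba in the Klf5 knockout (from 202 and 189 to 305 and 387, adjusted p = 0.0361). No member passed in the Creb3l1 knockout. Run on recovered reads (voom), the paired fit did call Inhba in that knockout and did not call Tgfb2 in the Nfatc1 knockout. These differences between lines are not shown by the test of the difference itself: of 36 interactions between a knockout and the fraction, 0 passed in limma without a block or with pairing (2 and 4 at an unadjusted p below 0.05). In all 4 knockouts 0% of genes passed without a block, and with pairing 0.0876% did in Pitx1, 0.0155% in Klf5 and 0% in the others. The smallest paired p was that of Inhba in the Nfatc1 knockout, whose fraction difference less that of the control line was -0.99 on the log2 scale (standard error 0.29, paired adjusted p = 0.631).

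The second comparison set each knockout line against the control line at day 8, over both fractions, 4 libraries against the same 4 control libraries. None of the 36 tests of a member passed in limma without a block (1 at an unadjusted p below 0.05), where the share of all genes called was 4.28% for Pitx1, 0.557% for Klf5, 0.046% for Nfatc1 and 0.945% for Creb3l1. Within single fractions 0 of 72 passed (1 unadjusted). The share of all genes called there was, in EPCAM+ and then EPCAM- cells, 0.409 and 0.915% for Pitx1, 0.0511 and 0.153% for Klf5, 0 and 0% for Nfatc1, and 0.194 and 0.261% for Creb3l1. With that block 1 of the 36 passed: Tgfbr2 in the Klf5 knockout, at a log2 difference of -0.58 (adjusted p = 0.0256, against 0.303 without), beside 1.62% of genes.

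For Tgfbr2 the Klf5 knockout libraries were at 1591 and 1125 units in EPCAM+ and 1818 and 1086 in EPCAM- cells, and the control libraries at 2493 and 1584 in EPCAM+ and 2713 and 1654 in EPCAM- cells (replicate 1, then 2). Each knockout library lay below the control library of its own number and fraction, at 0.638 to 0.710 of it, while across numbers the groups overlapped. Inhba had the largest difference of any member, -0.99 in the Pitx1 knockout (standard error 0.47, adjusted p = 0.3 without a block and 0.174 with it). Its 4 Pitx1 knockout libraries held 69 and 228 units in EPCAM+ and 103 and 315 in EPCAM- cells, each 0.393 to 0.615 of its same-numbered control. Tgfb1 was at 1455 to 1690 units in that knockout, above its same-numbered control in 4 of 4 libraries (log2 0.31, standard error 0.15, adjusted p = 0.313). Tgfb2 was above its control in 4 of 4 Creb3l1 knockout libraries and below it in 4 of 4 libraries of the Klf5 and of the Nfatc1 knockout, with no call.

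The knockout differences of several members did not hold within both replicate numbers. In replicate 1, Skil was above the control library of the same fraction in 8 of 8 knockout libraries, by a median log2 of 0.91 (0.58 to 1.43). In replicate 2 it was above in 1 of 8, with a median of -0.19 (-0.40 to 0.00). In units, the replicate 1 knockout libraries held 6054 to 9882 against 3535 and 5227 in the control line, and the replicate 2 knockout libraries 4859 to 6912 against 5939 and 7058. Smad7 went the same way, above control in 8 of 8 libraries of replicate 1 (median 0.46) and 2 of 8 of replicate 2 (median -0.29), and so did Tgfb1 with 8 of 8 (0.42) and 4 of 8 (-0.04). Inhba was above control in 6 of 8 libraries of replicate 1, the exceptions being both Pitx1 knockout libraries, and in 0 of 8 of replicate 2 (median -1.01). Tgfbr1 turned the other way, with 1 of 8 and 7 of 8. The 8 values of a number share their 2 control libraries, 1 per fraction, so they are not independent of each other.

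**Figure D3:**
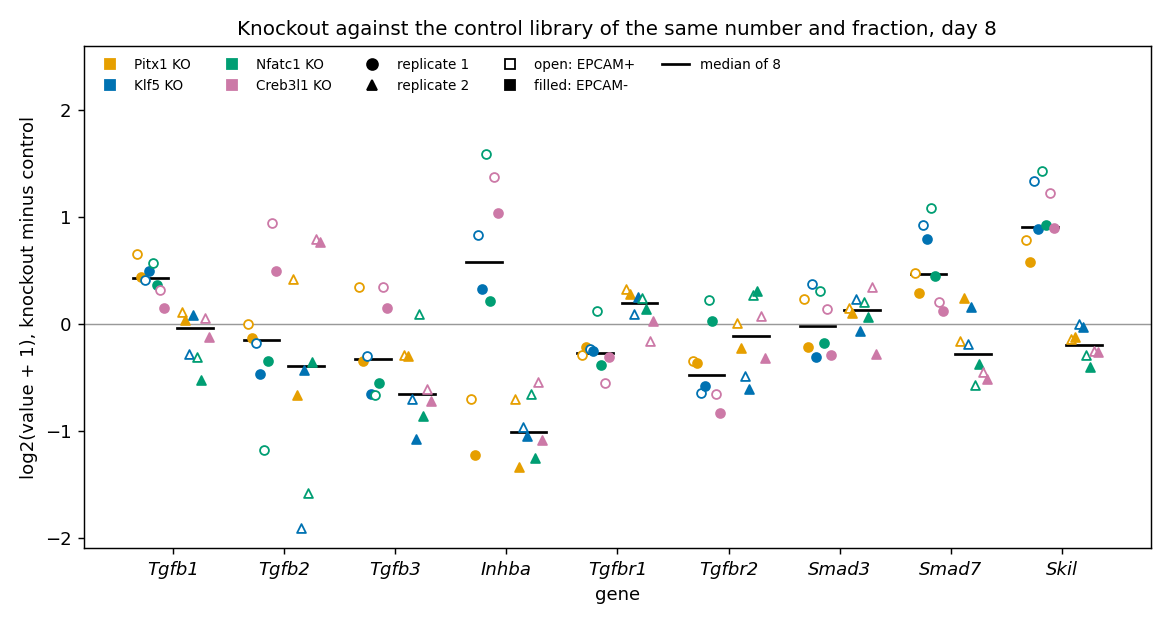
Difference in log2(value + 1) between each knockout library and the control library of the same replicate number and fraction at day 8, for each of the 9 genes, with circles and left positions for replicate 1, triangles and right positions for replicate 2, open symbols for EPCAM+, filled symbols for EPCAM-, and bars for the median of 8. In Skil the replicate 1 values lie from 0.58 to 1.43 and the replicate 2 values from -0.40 to 0.00.

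The receptor genes differed between the replicate numbers. Over the 10 groups of day 8, Tgfbr1 was higher in replicate 1 in 10 of 10, with a mean of 1938 units against 1530. Tgfbr2 was higher in 9 of 10 (2144 against 1542), Tgfb2 in 10 of 10 (34.8 against 19.1) and Skil in 8 of 10 (7867 against 5881). Tgfb1 and Smad3 showed no such shift, at 1376 against 1402 and 2346 against 2254 units.

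At day 0, only EPCAM+ control cells were sequenced. Against them, 0 of the 9 members passed in day 8 EPCAM+ control cells in limma (0 at an unadjusted p below 0.05), beside 0% of all genes. In day 8 EPCAM- control cells 0 of 9 passed (1 unadjusted), beside 2.01% of genes, where time and sort cannot be told apart. The largest difference there was Tgfb3, with 231 and 269 units in EPCAM- cells against 228 and 46 at day 0 (log2 1.27, standard error 0.52, adjusted p = 0.265). The 2 day 0 libraries of Tgfb3 lay far apart, and without replicate 1 of day 0 it was the 1 call of this comparison, with 1 day 0 library (46 units) assumed to vary like the other groups. Skil was at 3765 and 3354 units at day 0, and at day 8 only the control EPCAM+ library of replicate 1 (3535) lay below the higher of these. Tgfb1 was at 1060 and 849 units at day 0.

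Around these 9 genes, 88 symbols of other pathway genes were examined in 6 lists written from general knowledge. Of these symbols 87 were found in the table and 76 could be tested. The missing symbol is a newer name of a gene that was found under its older name. Earlier results of these data were known when the lists were written, so the shares of all genes beside them are a description only. Between the fractions 7 rose and 3 fell without pairing, where 2.74% of all genes rose and 3.49% fell. With the common replicate block 13 rose and 4 fell. With pairing 31 rose and 7 fell, where 13.7% of all genes rose and 9.2% fell. Their median log2 difference was 0.16, beside 0.06 for the 9 members and 0.06 for all genes tested.

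The list of latency and activation genes covers the proteins that hold secreted TGF-beta in the matrix and the integrins and proteases that release it. It had 6 rises and 1 fall among 12 tested genes in the paired fit (median 0.27). Of the 6 rises, 4 were matrix and latency genes (Ltbp1, Ltbp2, Ltbp4 and Fbn1), and the others were the integrin subunit Itgav and the protease Mmp14. Ltbp2 rose from a median of 2294 to 4469.5 units (log2 0.76, adjusted p = 0.0369 without pairing), and Fbn1, Ltbp1 and Ltbp4 rose in the paired fit and not without a block. With the common block Ltbp1 (adjusted p = 0.006) and Ltbp4 (0.0397) passed as well. The fall was Itgb6, the epithelial integrin subunit that activates latent TGF-beta, from 303 to 1218 units in EPCAM+ to 25 to 80 in EPCAM- libraries (log2 -3.54, adjusted p = 6.64e-10 without pairing).

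Among 10 other receptors and co-receptors 4 rose in the paired fit and 0 without pairing (median 0.12). Tgfbr3, betaglycan, which presents TGF-beta2 to the receptors, was at 14 to 470 units (median 47.5) in EPCAM+ and 63 to 656 (median 124.5) in EPCAM- libraries (log2 1.38, paired adjusted p = 1.19e-07). Of the 5 other ligands tested, Bmp4 rose from 0 to 32 units to 5 to 237 (log2 1.84, adjusted p = 0.0141 without pairing). Of 8 other Smads and partners 0 passed without pairing, and Smad5 (0.15) rose and Zfyve9 (-0.17) fell with it.

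Of 17 other inhibitors and feedback genes 6 rose and 3 fell in the paired fit (median 0.19). Smurf1, a ubiquitin ligase that SMAD7 brings to the type I receptor, fell from a median of 5408 to 4055 units (log2 -0.48, adjusted p = 0.0305 without pairing), and Nedd4l, another such ligase, fell by 0.29 on the log2 scale (adjusted p = 0.0362). Smad6 rose in the paired fit (log2 0.58, adjusted p = 0.00806). Of 24 TGF-beta target genes 5 rose and 0 fell without pairing, and 12 rose and 2 fell with it (median 0.25). The collagen gene Col1a1 (log2 2.33, adjusted p = 0.0105), the collagen cross-linker Lox (1.67, 0.0154), the transcription factor Snai2 (1.42, 0.0205) and the fibronectin receptor subunit Itga5 (0.84, 0.0304) rose without pairing. The cell cycle inhibitor Cdkn1a fell in the paired fit (-1.03, adjusted p = 1.92e-08). Col1a1 is also a fibroblast gene and lies beside the fibroblast markers given above. Their part in its rise was not tested.

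**Figure D4:**
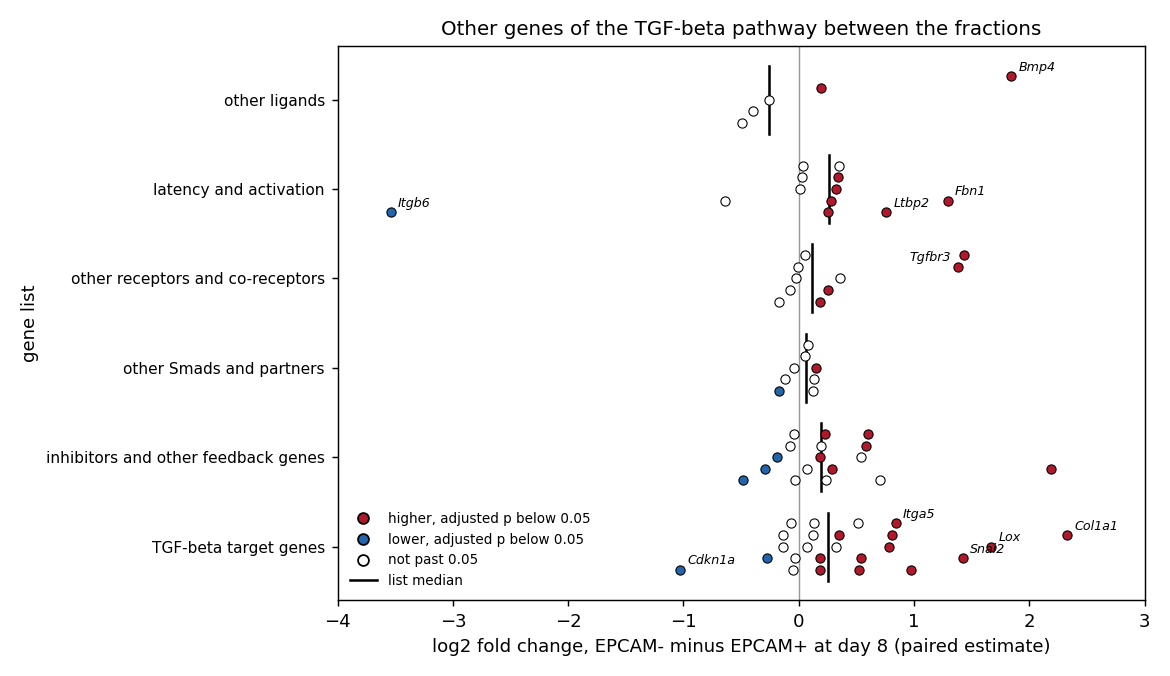
Log2 fold change, EPCAM- minus EPCAM+ at day 8 in the paired fit, of each tested gene of the 6 lists, with a bar at the list median, red for higher and blue for lower at an adjusted p below 0.05, and white for genes that did not pass. Itgb6 lies at -3.54 and Col1a1 at 2.33, at the 2 ends.

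Against the control line, few of the same 76 genes passed in limma without a block. In the Pitx1 knockout, where 4.28% of all genes were called, 3 fell. They were Bmp4 (log2 -2.72, adjusted p = 0.0291), the BMP antagonist Nog (-2.30, 0.0420) and Smad5 (-0.44, 0.0490). Ltbp3 rose in the Klf5 knockout (0.69, 0.0296), beside 0.557% of all genes called. In the Nfatc1 and Creb3l1 knockouts 0 passed, beside 0.046 and 0.945% of all genes. With the replicate block 2 rose and 4 fell in Pitx1, 2 rose and 1 fell in Klf5, 1 rose and 1 fell in Nfatc1, and 1 fell in Creb3l1. In that fit 8.77, 1.62, 0.95 and 2.27% of all genes were called in the same order. The comparison of day 8 EPCAM- with day 0 control cells gave Snai1 higher (2.40, adjusted p = 0.0253) and Itgb6 lower (-4.18, adjusted p = 1.54e-05). Without a block 2.01% of all genes were called there. With the replicate block, where 4.31% of all genes were called, Ltbp1 (1.05, adjusted p = 0.00153), Ltbp2 (1.69, 0.0146), Ltbp4 (0.83, 0.0308) and Snai2 (2.13, 0.0386) were higher as well.

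The genes whose pattern over the 22 libraries was most like each member were sought among 12588 genes by Pearson correlation of log2(value + 1), as a description, since the libraries share lines, fractions and replicate numbers. Skil had the closest match, Vegfa (r = 0.962), followed by Chst8 (0.949) and Slc6a8 (0.938). Vegfa, a growth factor gene of blood vessels, was at 3011 to 8835 units in the 8 replicate 1 knockout libraries against 1666 and 3030 in the control line, and at 2008 to 3974 in replicate 2 against 2805 and 4708. With the mean of each replicate number removed the correlation was 0.956. That step leaves the gap between knockout and control libraries of replicate 1 in place. Tgfbr1 was most like Pfkfb2 (0.897), Tgfbr2 like Tinagl1 (0.895), Smad7 like Golph3 (0.891), Inhba like Rcn2 (0.887) and, in the third place, the hyaluronan synthase gene Has2 (0.870), Tgfb1 like Uhrf1bp1l (0.834), Tgfb3 like R3hdm1 (0.821), Tgfb2 like Ssbp3 (0.811) and Smad3 like Tbc1d24 (0.722). Among the members themselves the highest correlation was between the 2 feedback genes Smad7 and Skil (r = 0.659), and the lowest between Inhba and Tgfbr1 (-0.565).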

How the data were processed

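The submitters' processing notes name FastQC, Trimmomatic, STAR, Picard and HTSeq, without versions, and GRCm38/mm10. The deposited table, read as a score because its unit is not stated in full, holds gene values scaled to 1 common total. Values above 0 fell on whole steps (99.8 to 99.92% of them per library), and a step was taken as 1 read. The unit was not established as whole reads, so the planned edgeR test, a test of counts, was not run. The voom alternatives used these estimated reads. Positions came from GENCODE M21.

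Genes that reached 10 units in 2 or more libraries entered limma 3.58.1 (R 4.3.3) on log2(value + 1), 1 mean per group, with a variance trend and robust moderation (11 residual degrees of freedom). Other fits added the replicate number as a common block (10) or as a block within each line (5, for fraction tests and interactions). The numbers come from the labels, which do not say what libraries of the same number share. Replicate differences correlated across genes by 0.171 to 0.381 between the fractions of each line, and by -0.131 to 0.381 (median 0.146) over all 55 pairs of groups. P-values were adjusted by Benjamini-Hochberg over all genes within each contrast. The fits were tested on simulated data with shared means within pairs and a fixed spread, a build that favours pairing. Changed genes had a mean of at least 50 units, so genes as low as Tgfb2 (median 24.0) were not covered. Of 100 genes changed by 0.5 on the log2 scale, the unpaired fit recovered 30 and the paired fit 86. Of 100 changed by 1 they recovered 87 and 100. Unchanged genes called were 0 of 19854 and 7 of 19642. The 9 genes and the gene lists were chosen with earlier results of these data known. Named genes were the members, label checks, up to 4 called rises and falls per list and contrast with a mean of at least 50 units, and the 3 genes most like each member. Alternatives were a pseudocount of 5, no filter, TMM factors, voom on recovered reads, only the compared groups, and leaving out each library. One further allele of the labelled genotype and 1 gene of the target list are not reported here by name.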

Additional observations from a re-analysis of the deposited data

How the results depend on the processing

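Of 1881 values recomputed for 63 results under the alternatives, 1810 kept their side of the threshold, 10 fell short of it, 61 newly passed it and 0 reversed a call. The 1810 include 64 values, called in neither fit, that changed sign. Between the fractions the number of called members was 1 without pairing, 2 with the replicate block, 2 with only the compared groups fitted (Tgfb3 and Tgfbr1) and 5 with the replicate block within lines, also after TMM rescaling or voom, both chosen after seeing the data. It ranged from 0 to 2 when each library was left out, and from 5 to 6 in the paired fit when each pair was left out. Pseudocount 5, no filter, TMM and voom without pairing each gave 1. Line by line the count was 0 without pairing, 1 with the replicate block and 8 with pairing within lines, TMM and voom included. With voom these were not the same 8: Inhba in the Creb3l1 knockout was called and Tgfb2 in the Nfatc1 knockout was not. Knockouts against control gave 0, and 1 with the replicate block (Tgfbr2 in the Klf5 knockout). Day 8 EPCAM- against day 0 gave 0, and 1 without replicate 1 of day 0, where the lone day 0 library is assumed to vary like the other groups. The replicate block changed no other call. Tgfb2, at 1 to 25 reads a library, is the value most limited by depth, and all groups hold 2 libraries. The planned edgeR test was not run.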
